A study of Homo sapiens with 6 samples.

Results

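NEAT1, MALAT1, SFPQ, NONO and PSPC1 are the genes of 2 nuclear long noncoding RNAs and of 3 RNA-binding proteins that meet in paraspeckles, small bodies in the nucleus. They were taken from the deposited table by gene name, which found 6 of its 58302 rows: 1 row for each gene and a second row named MALAT1 that is 95 bases long and lies inside the first. The RNA came from PC-3 cells, a long-established line that was grown from a prostate cancer's metastasis to bone, and was sequenced in 6 libraries. Of these, 3 were from PC-3 cells that received a BHLHE22-overexpression lentivirus (the BHLHE22 cells) and 3 were from PC-3 cells that received a blank vector lentivirus (the vector cells), so lentiviral transduction is common to both groups. The labels name no promoter, selection or clone for the transgene, no time after transduction, and no separate cultures behind the replicates, so p-values measure only the spread between these libraries. BHLHE22 is a basic helix-loop-helix transcription factor, and the comparison asks which transcripts differ when it is overexpressed.

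NEAT1 is the architectural RNA of paraspeckles. Its gene makes a short polyadenylated transcript and a long transcript that shares the same start, and it is the long one that scaffolds the bodies. SFPQ, NONO and PSPC1 form the DBHS protein family (Drosophila behaviour, human splicing). They dimerize with each other, coat NEAT1, and act in splicing, transcription and the retention of edited RNA in the nucleus; SFPQ and NONO are needed for paraspeckles to form, while PSPC1 is dispensable. MALAT1 is transcribed from the neighbouring gene and resides in nuclear speckles, bodies that store splicing factors.

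The ends that processing leaves on the long NEAT1 transcript and on MALAT1 are shown because they are what the pair share in sequence. The enzymes that make these ends are also among the genes described further on. Neither RNA ends there in a poly(A) tail. RNase P cuts in front of a tRNA-like structure, and the exposed end is protected by a triple helix between 2 U-rich motifs and an A-rich tract. The capitals mark the 3 runs of at least 8 bases that both ends hold, which in order contain the first U-rich motif, the second U-rich motif and the A-rich tract (T is read for U). The sequences are the 100 bases in front of each tRNA-like piece, on the plus strand of GRCh38 from GENCODE 29. They lie at chr11:65445441-65445540 for NEAT1 and chr11:65506017-65506116 for MALAT1. For NEAT1 this is also the end of the annotated gene, whereas the annotated MALAT1 gene runs on to position 65506516.
NEAT1 end: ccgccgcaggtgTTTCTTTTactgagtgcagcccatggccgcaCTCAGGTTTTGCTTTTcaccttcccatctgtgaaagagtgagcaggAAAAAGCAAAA
MALAT1 end: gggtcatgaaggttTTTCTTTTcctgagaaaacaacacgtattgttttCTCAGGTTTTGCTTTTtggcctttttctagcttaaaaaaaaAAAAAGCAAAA

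The tRNA-like pieces released from these ends begin at the next base, and are shown to let the cut products be compared. They are menRNA after NEAT1 (chr11:65445541-65445598, 58 bases) and mascRNA after MALAT1 (chr11:65506117-65506173, 57 bases), both on the plus strand. An alignment of the 2 had 40 identical positions of 59.
menRNA: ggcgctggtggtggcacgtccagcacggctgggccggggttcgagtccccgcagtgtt
mascRNA: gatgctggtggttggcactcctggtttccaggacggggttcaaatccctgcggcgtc

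BHLHE22 itself had 98, 92 and 133 counts in the BHLHE22 libraries and 1 count in each vector library. Total counts were 12186723 to 15808990 in the BHLHE22 libraries and 13889050 to 15949537 in the vector libraries. Mitochondrial-DNA genes took 4.95 to 5.21% of counts in the BHLHE22 libraries and 7.53 to 8.32% in the vector libraries. The epithelial genes KRT8, KRT18, KRT19 and EPCAM, and VIM, were present in every library, and KLK3 had no counts, as is known for PC-3 cells. Of these markers EPCAM (log2 fold change 1.17) and VIM (0.56) were called higher and KRT8 (-0.32) and KRT18 (-0.38) lower by edgeR; their part in the results was not tested. The blood cell genes TYROBP, CD3E and HBB had no counts, PTPRC had at most 2, and of 4 stromal or endothelial genes COL1A1 and PECAM1 were the ones with enough counts to test. COL1A1 had 47.6 CPM in BHLHE22 cells and 65.9 CPM in vector cells, PECAM1 had 23.1 CPM in BHLHE22 cells and 55.7 CPM in vector cells, and their part in the results was not tested. No 2 libraries agreed within counting noise: over genes, chi-square divided by its degrees of freedom was 10.2 to 21.4 within a group and 64.6 to 130.4 between groups.

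Both noncoding RNAs were lower in the BHLHE22 cells, MALAT1 about 3-fold and NEAT1 about 2-fold, while none of the 3 DBHS protein genes passed the test. Levels are given as CPM, the read count relative to the library size, here after TMM scaling, a correction for differences in library composition. Each gene was tested with edgeR's quasi-likelihood test over 15945 genes with enough counts, and called at a Benjamini-Hochberg adjusted p under 0.05. Of the 6 rows, 2 were called, both lower. In the same comparison 49.4% of all tested genes were called, 25.1% higher and 24.3% lower, so being called was common among all genes. Of the called genes 50.7% were higher with this scaling, and 64.0% with unscaled library sizes. In these bulk samples, less of an RNA per cell and fewer cells that express it cannot be told apart.

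NEAT1 (ENSG00000245532, chr11:65422774-65445540, plus strand, a lincRNA with 8 annotated transcripts) had 4358, 3746 and 3681 counts in the BHLHE22 libraries and 7458, 9373 and 6854 in the vector libraries. On the CPM scale these were 340.1, 269 and 221 in the BHLHE22 cells, against 564, 637 and 483 in the vector cells. The groups did not overlap: the highest BHLHE22 library, replicate 1, lay below the lowest vector library, replicate 3. NEAT1 averaged 277 ± 60.0 CPM in BHLHE22 cells and 561 ± 77.4 CPM in vector cells (SD, n = 3 each). It fell by 1.02 on the log2 scale in edgeR's fit (SE 0.17, 95% interval of the log2 fold change -1.43 to -0.62, adjusted p = 0.00282), which is 2.03-fold lower. Ranked by mean CPM among the tested genes, NEAT1 stood at place 510 in BHLHE22 cells and at place 204 in vector cells.

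MALAT1 (ENSG00000251562, chr11:65497762-65506516 in the table, plus strand, a lincRNA with 17 annotated transcripts) starts 52.2 kb after the end of NEAT1. It had 2198, 2381 and 2268 counts in the BHLHE22 libraries and 6347, 8636 and 5536 in the vector libraries, or 172, 171 and 136 CPM in the BHLHE22 cells, against 480.0, 587 and 390 CPM in the vector cells. Every vector library was higher than every BHLHE22 library, and vector replicate 2 was the highest of all, as it was for NEAT1. The means were 160 ± 20.3 CPM in BHLHE22 cells and 486 ± 98.8 CPM in vector cells (SD, n = 3 each). MALAT1 fell by 1.61 on the log2 scale (SE 0.17, 95% interval of the log2 fold change -1.99 to -1.22, edgeR adjusted p = 0.000401), 3.05-fold lower, and its rank among tested genes was 1242 in BHLHE22 cells and 258 in vector cells. The 95% intervals of the NEAT1 and MALAT1 changes overlap, and their difference is taken up with the ratios within a library.

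Both calls held in every alternative fit that was run. Leaving out each library in turn gave log2 fold changes of -1.19 to -0.88 for NEAT1 and -1.74 to -1.45 for MALAT1, and leaving the mitochondrial genes out of the library sizes gave -1.02 and -1.61. The deposited gene counts do not separate the short from the long NEAT1 transcript, since the short one lies wholly within the long one. Whether the libraries were made from poly(A) RNA, which would select the short transcript over the long one, is not given in the sources used here.

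**Figure D1:**
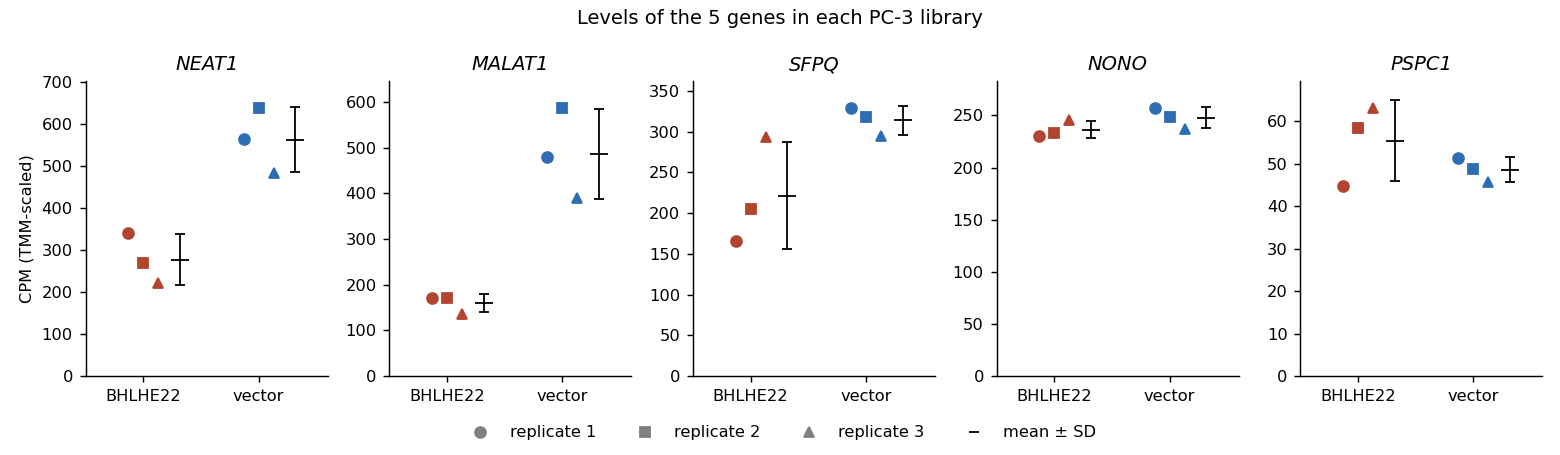
Level of each of the 5 genes in each PC-3 library, in CPM after TMM scaling (linear axis from 0, own range per gene). Red marks are BHLHE22 libraries and blue marks vector libraries, with the replicate shown by the mark's shape, and the black bars are the mean ± SD of 3 libraries. The groups are apart for NEAT1 and MALAT1, nearly touch for SFPQ, where BHLHE22 replicate 3 reaches 293 CPM against 295 CPM in vector replicate 3, and overlap for NONO and PSPC1.

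In the plot of CPM by library, a gap separates the groups for both noncoding RNAs, and none is seen for NONO and PSPC1. BHLHE22 replicate 3 was the lowest of its group for NEAT1 and MALAT1 and the highest of its group for SFPQ, NONO and PSPC1.

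The second row named MALAT1 (ENSG00000278217, 95 bases, chr11:65502914-65503008, plus strand, classed as a miscellaneous RNA) covers positions 5153 to 5247 of an annotated MALAT1 transcript of 8708 bases. Its sequence from GRCh38 is shown because reads of MALAT1 that fall on it could be counted for either row.
MALAT1 nested row: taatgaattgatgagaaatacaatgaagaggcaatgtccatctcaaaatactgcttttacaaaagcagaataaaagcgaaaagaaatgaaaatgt

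It had 73, 71 and 78 counts in the BHLHE22 libraries and 107, 269 and 1 in the vector libraries. Vector replicate 3, with 1 count, was far from the other two vector libraries, so the groups overlapped and the row was not called (log2 fold change -0.78, edgeR adjusted p = 0.600). Its direction rested on single libraries. Without vector replicate 3 it was -1.35 (adjusted p = 0.0205), and without vector replicate 2 it was 0.35 (adjusted p = 0.845). With both rows summed, an alternative chosen after seeing the data, MALAT1 had a log2 fold change of -1.59 (adjusted p = 0.000524).

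Several other short rows of the table lie within the pair. The rows NEAT1_1, NEAT1_2 and NEAT1_3, conserved regions near the start of NEAT1, and the mascRNA row had 1 count in every library, as had 341 genes of the table in all. The antisense row within MALAT1, AP000769.2, had 0 counts in the BHLHE22 libraries and 0, 2 and 2 in the vector libraries. None of these rows had enough counts to test, and they add no measurement of NEAT1 or MALAT1.

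Among the DBHS protein genes, SFPQ was the nearest to a call. SFPQ (ENSG00000116560, chr1:35176378-35193148, minus strand), a splicing factor that also binds DNA, had 166, 205 and 293 CPM in BHLHE22 cells, against 329, 318 and 295 CPM in vector cells. The groups did not overlap, but BHLHE22 replicate 3 lay just under the lowest vector library. SFPQ averaged 222 ± 65.2 CPM in BHLHE22 cells and 314 ± 17.6 CPM in vector cells (SD, n = 3 each). Its log2 fold change was -0.50 (SE 0.20, unadjusted 95% interval -0.97 to -0.03) with an edgeR adjusted p of 0.0725, above the threshold. The call depended on the tool and on BHLHE22 replicate 3: the adjusted p was 0.0303 in DESeq2, 0.0493 in limma-voom and 0.00388 in edgeR without that library, where the log2 fold change was -0.75.

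NONO (ENSG00000147140, chrX:71283192-71301168, plus strand), the partner that both other family members bind, had 231, 233 and 246 CPM in BHLHE22 cells, against 257, 249 and 237 CPM in vector cells. BHLHE22 replicate 3 exceeded vector replicate 3, so the groups overlapped. The log2 fold change was -0.07 (SE 0.07, edgeR adjusted p = 0.467), and the 95% interval of -0.24 to 0.10 covers differences in either direction; with unscaled library sizes the log2 fold change was 0.08 (adjusted p = 0.398). NONO had the narrowest interval of the 6 rows.

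PSPC1 (ENSG00000121390, chr13:19674752-19783019, minus strand), the least abundant of the family here, had 44.7, 58.3 and 63.1 CPM in BHLHE22 cells, against 51.4, 48.7 and 45.6 CPM in vector cells. BHLHE22 replicate 1 lay below all vector libraries and the other two BHLHE22 libraries lay above them. The log2 fold change was 0.19 (SE 0.14, 95% interval -0.13 to 0.51, edgeR adjusted p = 0.278). Without BHLHE22 replicate 1 it was 0.33 with an adjusted p of 0.0369, so that library decided the call.

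Processed pseudogenes of the family held few reads: NONOP2 had 0 to 8 counts per library, PSPC1P1 0 to 5, and SFPQP1 and PSPC1P2 none.

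Counted by overlap instead of by the test, 3 of the 6 rows (NEAT1, MALAT1 and SFPQ) had every BHLHE22 library below every vector library. The groups were apart in this way for 60.5% of all tested genes, 30.6% higher and 29.9% lower. The share among the 6 rows is read only against that background.

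Ratios between the members within a library need no scaling of library sizes. NEAT1 counts were 1.98, 1.57 and 1.62 times those of MALAT1 in BHLHE22 libraries, against 1.18, 1.09 and 1.24 times in vector libraries. The ratio was higher in all 3 BHLHE22 libraries, by 0.56 on the log2 scale. A 2-sided exact permutation test over the 6 libraries gave p = 0.1, the smallest it can give with 3 against 3, and 0.133 after Benjamini-Hochberg adjustment over the 4 ratios examined, so this design cannot place it under 0.05.

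The balance among the transcripts of the DBHS genes was nearly constant in the vector cells and varied in the BHLHE22 cells. Protein was not measured. SFPQ counts were 3.71, 3.52 and 4.65 times those of PSPC1 in BHLHE22 libraries, against 6.40, 6.52 and 6.47 times in vector libraries, a log2 difference of -0.72. SFPQ counts were 0.720, 0.881 and 1.19 times those of NONO in BHLHE22 libraries, against 1.28, 1.28 and 1.24 times in vector libraries, a log2 difference of -0.47. Neither of these ratios overlapped between groups, and each had the smallest possible exact permutation p of 0.1 (0.133 adjusted). The PSPC1 to NONO ratio, 0.194, 0.251 and 0.257 in BHLHE22 libraries and 0.200, 0.196 and 0.192 in vector libraries, did overlap (log2 difference 0.24, exact permutation p = 0.3, adjusted 0.3).

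**Figure D2:**
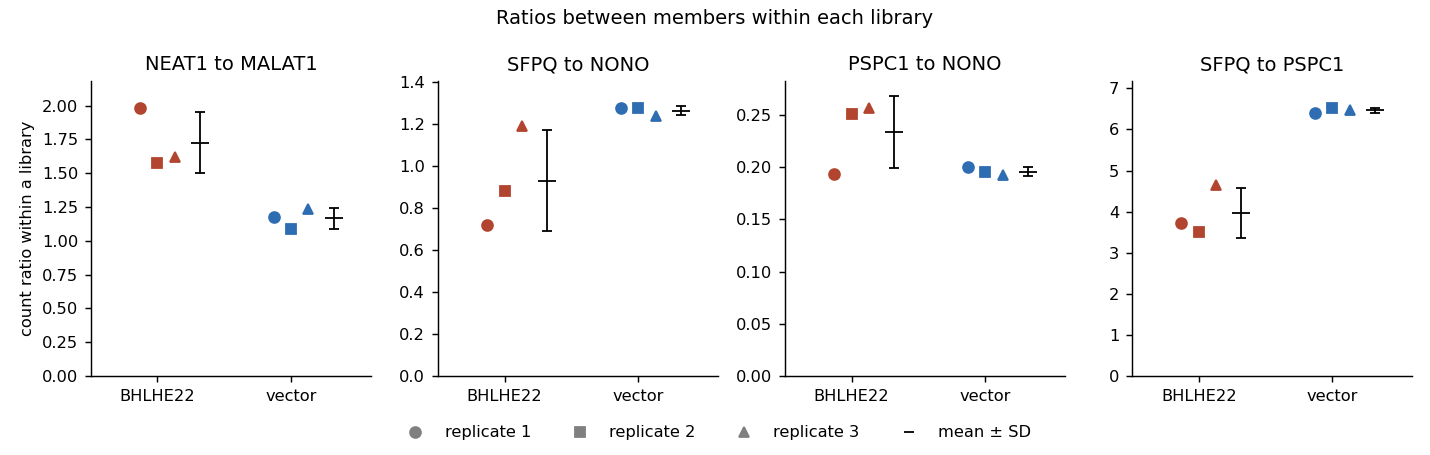
Ratio of the counts of one gene to those of another within each library (linear axes from 0), in BHLHE22 libraries (red) and vector libraries (blue), with the replicate shown by the mark's shape and black bars for the mean ± SD of 3 libraries. The SFPQ to PSPC1 ratio is 3.96 ± 0.605 in BHLHE22 cells and 6.46 ± 0.0619 in vector cells, and the PSPC1 to NONO ratio is the one whose groups overlap.

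The plot of ratios shows how much tighter the vector libraries are: the SD of the SFPQ to NONO ratio was 0.241 in BHLHE22 cells and 0.0205 in vector cells. Expressed as shares of the trio per kilobase of exon, SFPQ made up 34.2 ± 5.19% in BHLHE22 cells and 42.6 ± 0.33% in vector cells. The share of NONO was 52.5 ± 5.53% in BHLHE22 cells and 47.2 ± 0.41% in vector cells, and that of PSPC1 was 13.3 ± 1.07% in BHLHE22 cells and 10.2 ± 0.12% in vector cells (SD, n = 3 each). NONO was the most abundant of the trio by this measure in all 6 libraries, which the deposited FPKM values, built on other gene lengths, do not share.

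Levels of different genes were compared as CPM per kilobase of merged GENCODE 29 exons. In BHLHE22 cells the order was NONO (44.7 ± 1.54), SFPQ (29.8 ± 8.78), MALAT1 (18.1 ± 2.30), NEAT1 (12.2 ± 2.64) and PSPC1 (11.5 ± 1.98). In vector cells it was MALAT1 (55.0 ± 11.2), NONO (46.8 ± 1.91), SFPQ (42.3 ± 2.37), NEAT1 (24.7 ± 3.4) and PSPC1 (10.1 ± 0.609). MALAT1 was thus below NONO and SFPQ in BHLHE22 cells and first in vector cells, where its libraries (44.2 to 66.5) overlapped those of NONO (44.8 to 48.6) and SFPQ (39.7 to 44.3). NEAT1 and PSPC1 overlapped in BHLHE22 cells, with 9.70 to 14.9 for NEAT1 and 9.28 to 13.1 for PSPC1, and were apart in vector cells, with 21.2 to 28.0 for NEAT1 and 9.46 to 10.7 for PSPC1. The other neighbours in either order did not overlap, although NONO and SFPQ in vector cells, and MALAT1 and NEAT1 in BHLHE22 cells (15.4 to 19.4 against 9.70 to 14.9), came close. For NEAT1 the whole 22.8 kb was used as its length, so a pool made mostly of the short transcript would have more molecules than this scale gives. RNA selection is not given in the sources used here. If poly(A) RNA was selected, RNAs without a poly(A) tail and protein-coding transcripts may have been captured unequally. The place of MALAT1 and NEAT1 in these orders may therefore differ from their true abundance, which was not tested.

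The order also depends on which length is used. The deposited FPKM values place SFPQ (29.4 ± 1.38) above MALAT1 (27.2 ± 4.80) in vector cells, while in BHLHE22 cells SFPQ has 23.0 ± 6.84 and MALAT1 9.91 ± 1.23. They also place SFPQ above NONO in BHLHE22 replicate 3 (30.6 against 25.6) and in all 3 vector libraries, where NONO averages 23.2 ± 0.845. The gene lengths that the authors' FPKM imply are 1.15 times the merged exon length for NEAT1 and 1.91 times for MALAT1 and NONO. Across 14726 genes with at least 100 counts, 92.2% of the implied lengths equal the sum of all distinct annotated exons, overlapping ones counted more than once, though those of NEAT1 and MALAT1 do not. That length is the same in both groups, so it changes the order of genes and not the comparison of BHLHE22 with vector cells.

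Transcripts of other proteins found in paraspeckles were more often higher than lower in BHLHE22 cells. Of 29, 12 rose (41.4%), 2 fell (6.9%) and 15 did not pass the test, against 25.1% higher and 24.3% lower among all tested genes. The share called in either direction was 48.3%, near the 49.4% of all tested genes. The median log2 fold change was 0.26 over the list and 0.00 over all tested genes. HNRNPH3, a heterogeneous nuclear ribonucleoprotein required for paraspeckles, had 251 ± 3.66 CPM in BHLHE22 cells and 169.5 ± 9.31 CPM in vector cells (log2 fold change 0.57, edgeR adjusted p = 0.000822). SMARCA4, the ATPase of SWI/SNF chromatin remodelling, rose by 0.44 on the log2 scale and TAF15, of the FET family of RNA-binding proteins, by 0.65. The cold-inducible RNA-binding proteins CIRBP and RBM3 rose by 0.74 and 0.70. SS18L1, a subunit of the neuronal form of the same remodelling complex, fell to 29.4 ± 1.40 CPM in BHLHE22 cells, against 47.7 ± 3.66 CPM in vector cells (log2 fold change -0.70, adjusted p = 0.00119).

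A few of this list are named after their values were seen. AKAP8L, a nuclear matrix protein, fell by 0.51 (edgeR adjusted p = 0.0121). HNRNPK, which favours the long NEAT1 transcript, was at 435 CPM in BHLHE22 cells and 395 CPM in vector cells and was not called (log2 fold change 0.14, adjusted p = 0.180). RBM12 had the largest log2 fold change of the list, 1.65, without passing the test (adjusted p = 0.0736), since its 43.8, 8.75 and 30.1 CPM in BHLHE22 cells overlapped its 13.1, 6.32 and 6.90 CPM in vector cells. Leaving out single libraries left 8 to 13 members called higher and 2 or 3 called lower.

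**Figure D3:**
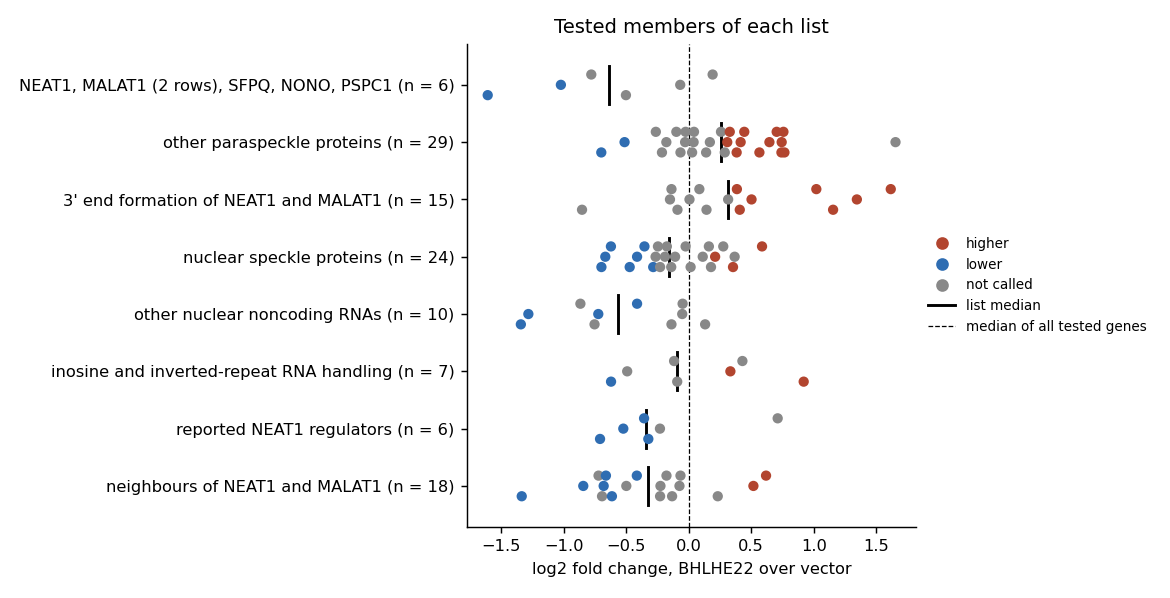
Log2 fold change, BHLHE22 over vector, of each tested member of the lists around NEAT1 and MALAT1 (1 point per row of the table; height within a list is spread only to separate points). Red points were called higher, blue points called lower and grey points not called, the black bar is the list's median and the dashed line the median of all tested genes. The medians are 0.26 for other paraspeckle proteins and 0.32 for 3' end formation, and -0.57 for other nuclear noncoding RNAs.

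The plot of the lists puts each group beside the median of all tested genes, which is 0.00. The list for 3' end formation holds the enzymes that form the ends printed above. It also holds proteins that favour the short NEAT1 transcript and a protein that binds the triple helix. Of its 15 tested members 7 were called higher and none lower, with a median log2 fold change of 0.32. That is 46.7% called, all higher, against 49.4% called and 25.1% higher among all tested genes. Protein subunits of RNase P, which cuts both RNAs in front of the tRNA-like piece, accounted for 6 of the 7, out of 9 tested (66.7%). These subunits are a part of that list and not a list of their own, and no set test was run on them. RPP40 had 7.73, 9.83 and 11.2 CPM in BHLHE22 cells, against 3.10, 3.13 and 3.17 CPM in vector cells (log2 fold change 1.62, edgeR adjusted p = 0.000431). POP1 had 20.7, 30.6 and 39.7 CPM in BHLHE22 cells, against 10.6, 10.9 and 14.4 CPM in vector cells (log2 fold change 1.34, adjusted p = 0.00386). In both genes every BHLHE22 library was higher than every vector library, and in RPP40 the vector libraries were close together.

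RPP25, POP4 and POP7, further subunits of RNase P, rose by 1.02, 1.15 and 0.50 on the log2 scale. The catalytic RNA of the enzyme, RPPH1, had 5 to 13 counts in BHLHE22 libraries and 11 to 16 in vector libraries and was not called (log2 fold change -0.85, edgeR adjusted p = 0.0773). ELAC2, which trims the other end of the tRNA-like piece, rose by 0.39 (adjusted p = 0.0351), a call that was lost without BHLHE22 replicate 2 or 3 or vector replicate 1 or 2, with adjusted p of 0.0823 to 0.107. The subunits of cleavage factor Im, NUDT21, CPSF6 and CPSF7, which favour the short NEAT1 transcript, had log2 fold changes of -0.14, -0.15 and 0.01 and none was called. METTL16, which binds the triple helix of MALAT1, had 0.09 and was not called.

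Proteins of nuclear speckles, where MALAT1 resides, included 24 tested genes, of which 7 fell, 3 rose and 14 were not called, with a median of -0.16. The share called lower was 29.2%, near the 24.3% of all tested genes, and the share called higher was 12.5%, against 25.1%. SF3B1, the core of the U2 particle that recognizes the branch point, had 480 ± 34.1 CPM in BHLHE22 cells and 738 ± 27.5 CPM in vector cells (log2 fold change -0.62, edgeR adjusted p = 0.000770). PNN, ACIN1 and DYRK1A fell by 0.70, 0.35 and 0.67. The splicing regulator SRSF3 rose by 0.59 and the kinase CDK12 by 0.35. The call of ACIN1 was lost with unscaled library sizes (adjusted p = 0.055) and that of SRSF3 without vector replicate 2 (adjusted p = 0.0512). With unscaled library sizes the list had 5 members called higher and 3 lower, so which direction is more frequent depends on the scaling.

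Other nuclear noncoding RNAs had 4 members called lower and none higher of 10 tested, with a median of -0.57. The 40.0% called is below the 49.4% of all tested genes, of which 24.3% were called lower. KCNQ1OT1, the antisense RNA that silences an imprinted domain, had 16.8, 9.83 and 8.52 CPM in BHLHE22 cells, against 38.2, 29.7 and 20.9 CPM in vector cells (log2 fold change -1.34, edgeR adjusted p = 0.0128). KCNQ1OT1 lies within KCNQ1 on the opposite strand, and reads of the 2 cannot be told apart if the counting ignored strand. LINC-PINT and FTX fell by 1.28 and 0.72. HOTTIP fell by 0.41 (adjusted p = 0.0394), a call that 9 of its alternative fits did not keep. TUG1, at 213 CPM in BHLHE22 cells and 220.0 CPM in vector cells, had a log2 fold change of -0.05 and was not called.

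Across the lincRNA class as the table annotates it, NEAT1 and MALAT1 had the highest mean CPM after NORAD. NORAD, which binds Pumilio proteins, had 697, 651 and 585 CPM in BHLHE22 cells, against 1153, 1105 and 1148 CPM in vector cells (log2 fold change -0.82, edgeR adjusted p = 0.000347). Of the 61 lincRNAs with a mean of at least 10 CPM, 30 were called lower (49.2%) and 11 higher, with a median of -0.44. Over all 528 tested lincRNAs the counts were 148 lower (28.0%) and 108 higher (20.5%), with a median of -0.16, close to the 24.3% and 25.1% of all tested genes. NEAT1 and MALAT1 together made up 10.1 to 12.7% of lincRNA counts in BHLHE22 libraries and 17.1 to 20.5% in vector libraries.

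NONO and SFPQ also hold edited, inosine-containing RNA in the nucleus, and 7 rows of genes from that process were tested, of which 3 were called (42.9%, against 49.4% of all tested genes). ADAR, the enzyme that makes inosine in double-stranded RNA, had 612, 650.1 and 760 CPM in BHLHE22 cells, against 351, 364 and 354 CPM in vector cells. All BHLHE22 libraries were higher (log2 fold change 0.92, edgeR adjusted p = 0.000342). STAU1, which competes with NONO for RNAs with inverted repeats, fell by 0.62, and CARM1, which methylates NONO, rose by 0.33. The other 4 rows were not called: ADARB1, SLC7A2 and the 2 rows named MATR3, which had log2 fold changes of 0.43 and -0.49. The list's median of -0.09 changed sign in some alternatives, from -0.37 without BHLHE22 replicate 3 to 0.30 without vector replicate 2. Between 3 and 5 members were called as single libraries were left out, with 5 without BHLHE22 replicate 1.

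Of transcription factors reported to act on the NEAT1 gene in other systems, 4 of 6 tested fell and none rose, with a median of -0.34, where 24.3% of all tested genes were called lower and 25.1% higher. HIF1A, the hypoxia-inducible factor, had 983, 882 and 732 CPM in BHLHE22 cells, against 1305, 1653 and 1286 CPM in vector cells (log2 fold change -0.71, edgeR adjusted p = 0.00446). RUNX1 fell by 0.52 (adjusted p = 0.00919). HSF1, the heat shock factor, fell by 0.36 and ATF2 by 0.32; both calls were lost in several fits, and without vector replicate 2 only HIF1A and RUNX1 of the list were called. With unscaled library sizes 2 members were called lower and 1 higher (EPAS1). EPAS1, the related hypoxia factor, was not called (log2 fold change 0.71, adjusted p = 0.0604), with 142, 156 and 91.9 CPM in BHLHE22 cells, against 101, 77.9 and 59.9 CPM in vector cells. It was called higher in DESeq2, in limma-voom, with the replicate block, without BHLHE22 replicate 3 and without vector replicate 1. STAT3 had 0, 0 and 1 counts in BHLHE22 libraries and 5, 4 and 3 in vector libraries; PC-3 cells are known to lack this gene's protein.

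The promoter of MALAT1 is shown because BHLHE22 belongs to a family whose members bind E boxes. RefSeq (GRCh38.p14) entries, from 250 bases before to 50 after a start, were given for 3 of the 5 genes: MALAT1 with 2 starts, NONO and PSPC1. The motif searched was the E box CANNTG, which reads the same on both strands, and it is in capitals. It occurs in 68.7% of 35116 promoters of this length. The first MALAT1 promoter, chr11:65497488-65497787 on the plus strand, held it once, at position 294 of 300.
MALAT1 promoter: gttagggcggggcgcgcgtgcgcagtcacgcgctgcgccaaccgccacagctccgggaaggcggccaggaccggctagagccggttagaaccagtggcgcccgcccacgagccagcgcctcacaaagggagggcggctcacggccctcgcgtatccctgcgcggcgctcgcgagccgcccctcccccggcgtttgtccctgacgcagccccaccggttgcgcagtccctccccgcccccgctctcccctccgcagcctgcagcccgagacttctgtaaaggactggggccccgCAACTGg

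The second MALAT1 entry, chr11:65498795-65499094, held 1 E box, NONO held 2 and PSPC1 held 1. A match is a description of these letters, present in most promoters, and no binding was measured.

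Genes within 200 kb of NEAT1 or MALAT1 included called genes of both directions. Of 33 rows there, 18 were tested, of which 6 fell, 2 rose and 10 were not called, with a median log2 fold change of -0.32. The shares were 33.3% lower and 11.1% higher, 44.4% called in all, against 24.3%, 25.1% and 49.4% of all tested genes. SLC25A45, a gene of the mitochondrial carrier family that lies before NEAT1 on the other strand, had 4.06, 4.95 and 5.94 CPM in BHLHE22 cells, against 11.7, 14.8 and 11.4 CPM in vector cells (log2 fold change -1.34, edgeR adjusted p = 0.00100). FRMD8, which lies between SLC25A45 and NEAT1, was not called (log2 fold change -0.23, adjusted p = 0.433). On the far side of MALAT1, LTBP3, FAM89B and EHBP1L1 fell by 0.84, 0.68 and 0.61. POLA2, a subunit of the DNA polymerase alpha and primase complex that lies farther before NEAT1, rose by 0.62 (adjusted p = 0.00201).

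**Figure D4:**
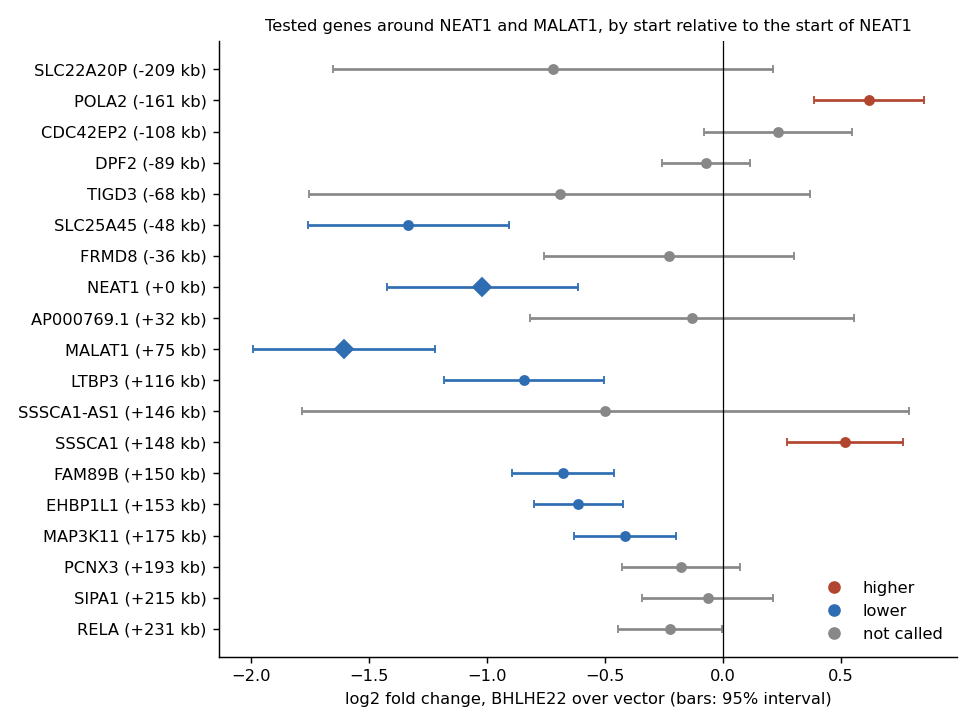
Log2 fold change, BHLHE22 over vector, with its 95% interval, of the tested genes within 200 kb of NEAT1 or MALAT1 that are reported here, from the gene farthest before NEAT1 (top) to the farthest after (bottom). The distance in brackets is that of the gene's lower coordinate from the start of NEAT1, diamonds are NEAT1 and MALAT1, and colours give the call. MALAT1 has the lowest log2 fold change of the region (-1.61), and called and uncalled genes are mixed along it.

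The plot of the neighbourhood shows called genes on both sides of NEAT1 and MALAT1 and genes of both directions among them. SSSCA1, named here after its values were seen, rose by 0.52 and overlaps FAM89B, which fell. Whether the counting used strand is not given in the sources used here, but both genes lie on the plus strand, so reads of their overlap could be assigned to either with or without strand.

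NEAT1 and MALAT1 were each compared with 10069 tested genes that had a mean of at least 10 CPM. These left out the members themselves and every gene with a dot in its name, as clone-based names have. Each gene's log2 CPM was centred on its own mean. The genes most like each noncoding RNA had the smallest root-mean-square difference over the 6 libraries. For NEAT1 these included PIM3, DYRK1B, KDM7A and HDAC5, at differences of 0.0559 to 0.0657. PIM3, a serine/threonine kinase gene, had 53.2, 45.6 and 38.5 CPM in BHLHE22 cells, against 92.3, 109 and 77.1 CPM in vector cells, the same order of libraries as NEAT1. For MALAT1 they were SATB1, CREBRF, ZCCHC24, PNRC1 and LYST, at differences of 0.0894 to 0.0966. SATB1, which encodes a chromatin organizer, had 46.3, 42.3 and 38.8 CPM in BHLHE22 cells, against 116, 141 and 97.7 CPM in vector cells. NEAT1 and MALAT1 were not among each other's nearest: their difference was 0.304, which put MALAT1 at place 1202 for NEAT1 and NEAT1 at place 326 for MALAT1.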

How the data were processed

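RNA-seq of 3 BHLHE22 and 3 vector libraries of PC-3 cells was analysed from 1 table of 58302 genes. Its counts are whole numbers of reads per gene as deposited by the authors, and its FPKM values, per the file headers, are the authors' counts scaled by gene length and library size. Per the submitters' processing notes, HISAT2 2.1.0, StringTie 1.3.4b, CASAVA 1.8 and edgeR were among the tools, and GRCh38 (hg38) was the build. For counting options, strand and RNA selection, nothing is stated in these sources. Totals ran from 12186723 to 15949537 counts.

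Counts were filtered (filterByExpr), TMM-scaled and tested with edgeR 4.0.16 (quasi-likelihood, robust, 2-sided, no covariate, Benjamini-Hochberg over 15945 genes) in R 4.3.3, and the script was tested on simulated data. DESeq2 1.42.0, limma-voom 3.58.1, other scalings and filters, a replicate block and leaving out libraries were the alternatives. FPKM was used for levels only.

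Named in the text are the 5 genes, up to 6 called members of each list with the smallest p, and the 5 genes most like NEAT1 and MALAT1, except a few that are not reported here. The genes and lists were chosen with earlier results of these data known. List counts stand beside those of all tested genes, with no set test.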

Additional observations from a re-analysis of the deposited data

How the results depend on the processing

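NEAT1 and MALAT1 kept their direction and their call in every alternative run (log2 fold changes of -1.19 to -0.87 for NEAT1 and -1.74 to -1.45 for MALAT1). With the replicate number as a block they were -1.03 and -1.59; no label ties the numbers to a shared culture, deviations of same-numbered libraries correlated at -0.03 to 0.01, not every library correlated best with its own number, and the block gave 3688 genes higher and 3604 lower, against 3996 and 3880 without it. SFPQ passed the threshold in DESeq2 (-0.51) and limma-voom (-0.54), and ranged from -0.75 to -0.32 as single libraries were left out. PSPC1 ranged from 0.093 to 0.331 in the same way. NONO changed sign with unscaled library sizes (0.079), a scaling that also moved the median over all genes, by 0.146 in log2 units. Calls among genes of inosine-containing RNA ranged from 3 to 5 and among NEAT1 regulators from 2 to 3 as single libraries were left out. The 95-base row within MALAT1 changed sign in limma-voom (1.04) and ranged from -1.354 to 0.353 as single libraries were left out, the highest without vector replicate 2. Of 630 values of 45 named genes in these fits, 28 changed side of the threshold and 0 changed sign. The cause of these changes was not tested. The short and long NEAT1 transcripts cannot be told apart at the level of gene counts, and 3 libraries per group limit ratio tests to an exact permutation p of 0.1.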
